A study of Mus musculus with 16 samples.

Results

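Extracellular ATP and its breakdown products act on cells through purinergic receptors, and the 10 genes described here cover that route from release of ATP to the adenosine receptors. They were taken as listed: the receptors for nucleotides P2ry1, P2ry6, P2rx4 and P2rx7, the ATP-handling genes Slc17a9 and Panx1, the ectonucleotidases Entpd3 and Nt5e, and the adenosine receptors Adora1 and Adora2a. All 10 were among the 23329 genes of a mouse count table, and their human orthologs, matched by upper-case symbol, were all among the 57980 genes of a human single-cell matrix. The mouse libraries came from BetaTC6 cells, an insulinoma-derived β-cell line of C57BL/6 background. Wild-type cells and a line labelled P2ry1 knockout grew for 3 days, were kept in Krebs Ringer buffer without glucose, and then received 20 mM glucose with ivermectin or with the DMSO vehicle for 30 min. Every group therefore had the high glucose, and each of the 4 combinations of line and treatment had 4 libraries. How the knockout was made, how many clones it holds and the ivermectin dose are not given in the sources used here. The human cells were a third-party set of dissociated islets from 6 donors without diabetes, with cell types annotated by that set's authors.

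ATP is loaded into secretory vesicles by the transporter encoded by Slc17a9, and in β-cells it is released along with insulin. Outside the cell it opens P2X channels, and its product ADP activates the receptor encoded by P2ry1, which couples to calcium release and is known for amplifying insulin secretion. Ectonucleotidases strip the phosphates in steps, and the adenosine that results acts on receptors that lower or raise cyclic AMP.

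The 250 bases before the transcription start are shown for P2ry1, the gene the line is labelled for, and for Entpd3 and Adora1, the members with the smallest adjusted p between the lines. They were read from RefSeq's promoter table on GRCm38.p6, which held 9 starts for 7 of the 10 members, and each equalled the genome at its coordinates. P2ry1 lies at chr3:61002535-61002784 on the plus strand, Entpd3 at chr9:120539568-120539817 on the plus strand, and the outermost start of Adora1 at chr1:134235458-134235707 on the minus strand. Each runs 5′ to 3′ on the gene's own strand, and capitals mark an E-box (CACGTG) or a GC box (GGGCGG or its reverse complement CCGCCC), motifs chosen after the sequences were seen.
P2ry1: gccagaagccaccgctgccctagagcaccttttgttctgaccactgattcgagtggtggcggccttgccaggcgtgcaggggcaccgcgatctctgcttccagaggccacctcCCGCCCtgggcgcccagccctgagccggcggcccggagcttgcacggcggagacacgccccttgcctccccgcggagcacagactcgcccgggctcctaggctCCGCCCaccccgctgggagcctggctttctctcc
Entpd3: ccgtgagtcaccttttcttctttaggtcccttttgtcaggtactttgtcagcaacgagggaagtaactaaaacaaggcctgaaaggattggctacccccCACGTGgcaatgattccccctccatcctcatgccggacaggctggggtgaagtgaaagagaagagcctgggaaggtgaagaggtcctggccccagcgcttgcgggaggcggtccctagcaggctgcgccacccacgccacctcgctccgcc
Adora1: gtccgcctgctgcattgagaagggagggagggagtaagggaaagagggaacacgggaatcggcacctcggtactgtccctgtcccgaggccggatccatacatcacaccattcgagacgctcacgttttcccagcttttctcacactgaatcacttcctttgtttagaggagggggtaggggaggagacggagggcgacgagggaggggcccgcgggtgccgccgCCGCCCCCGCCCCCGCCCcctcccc
The Entpd3 window held the E-box, which was in 6.02% of the 32851 promoter windows of the table, searched over the same length, and in 1 of the 9 windows of the members. GC boxes stood in the P2ry1 window and the Adora1 window shown, in 4 of the members' 9 windows and in 32.7% of all windows. The window of the other Adora1 start, at chr1:134234857-134235106, had 0. In the run near the Adora1 start shown, 3 GC boxes lie end to end. A match describes letters only.

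In the mouse cells 7 of the 10 members were measurable, meaning that they passed edgeR's default filter on low counts, which kept 10820 genes. P2ry1 was the most abundant member per transcript length, at a mean of 34.6 TPM, with 27.8 to 43.8 over 16 libraries (TPM scales reads by transcript length and library). P2rx4, an ATP-gated cation channel, followed at 23.2 TPM (17.3 to 29.5) and Entpd3, a surface enzyme that hydrolyses ATP and ADP, at 16.1 TPM (9.32 to 25.4). P2ry6, a receptor for UDP, had 8.84 TPM on average, Panx1, a channel through which ATP can leave a cell, 5.86 TPM, Slc17a9 4.65 TPM and Adora1 2.26 TPM. In this order the ranges over libraries overlapped in all 9 neighbouring pairs, although P2ry1 was above P2rx4 within every library.

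The remaining 3 members were too low to measure. Adora2a, a receptor that raises cyclic AMP, had 1 to 8 counts per library and a mean of 1.95 TPM. P2rx7, an ATP-gated channel best known from immune cells, had 26 counts in all, spread over 12 of the 16 libraries, and 0.624 TPM. Nt5e, the enzyme that turns AMP into adenosine, had 2 counts in total and 0.0475 TPM. Library totals ran from 893088 to 2013242 counts, and with 0 counts a gene may still be at 1.49 to 3.36 CPM (counts scaled to the library total), depending on the library, for counting error only. No difference between groups was read for these 3 genes.

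Libraries differed in more than their labels. The 4 wild-type vehicle libraries had the lowest totals and the most reads from 11 hepatocyte markers, 0.118% to 0.234% of counts against 0.0733% to 0.112% in the other groups, with all 11 detected. Alb averaged 581 CPM there and 38.5 to 101 CPM in the other groups, and the 9 markers beside Alb and Ttr were highest there too. Ttr, which α-cells also express, went the other way, at 603 CPM against 606 to 862 CPM. The fourth wild-type ivermectin library stood apart from its group: chi-squared per degree of freedom was 5.06 to 6.81 in its 3 pairs and 1.16 to 2.18 in all other pairs of replicates. Without it Entpd3 differed by -0.72 between the lines under ivermectin (edgeR adjusted p = 0.000678), and the calls of Adora1 under ivermectin (0.72, edgeR adjusted p = 0.0825) and of Slc17a9 over both treatments (-0.62, edgeR adjusted p = 0.0565) were lost. Sst, the hormone of δ-cells, stood at 200 to 250 CPM in wild-type libraries and at 12.8 to 26.5 CPM in those of the line labelled knockout. The 10 β-cell markers, insulin genes among them, took 3.03% to 3.98% of counts in every group. The part of these differences in the results below was not tested, beyond the alternatives named.

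**Figure D1:**
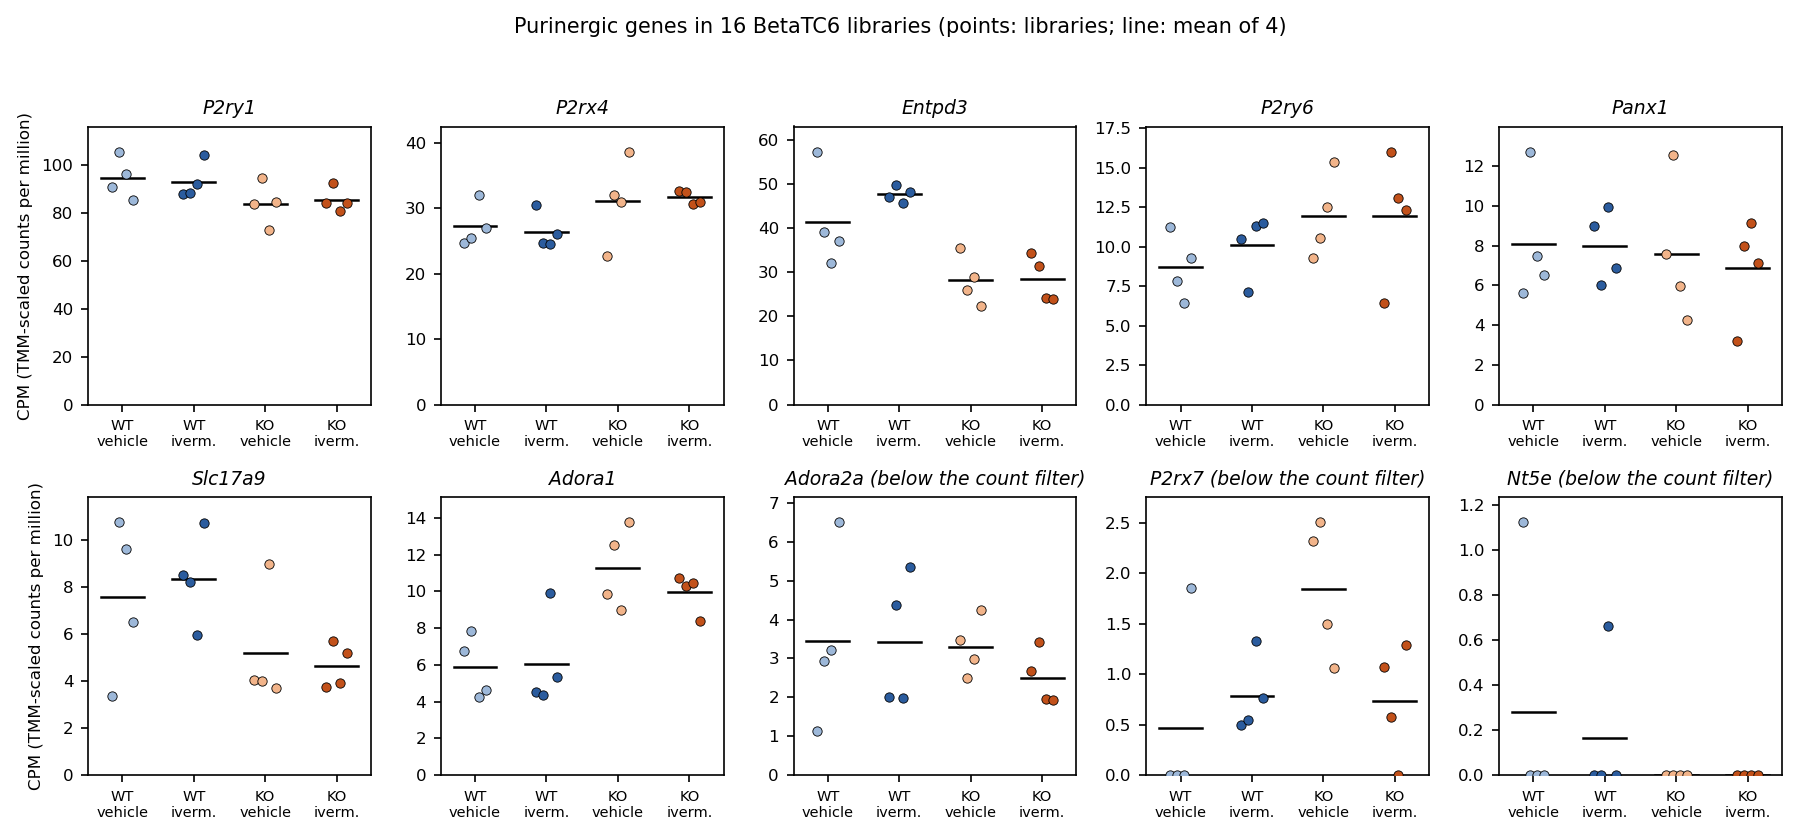
TMM-scaled CPM of the 10 members (one panel each, axes from 0) in the 4 mouse groups, with 1 point per library and a line at the mean of 4; WT is wild type and KO the line labelled knockout. P2ry1 sits between 72.8 and 106 CPM in every library, while Entpd3 is lower and Adora1 higher in most libraries of the line labelled knockout.

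P2ry1 transcripts were found in every library of the line labelled knockout, and the difference from wild type did not pass with all libraries at full depth. In wild-type vehicle libraries P2ry1 stood at 91.1, 106, 96.2 and 85.5 CPM, and in wild-type ivermectin libraries at 88.0, 88.2, 92.1 and 104 CPM. The line labelled knockout gave 83.6, 94.8, 72.8 and 84.8 CPM in vehicle and 84.2, 92.5, 81.0 and 84.1 CPM under ivermectin. The groups overlapped in both treatments, and no library was near 0. Over both treatments the log2 difference was -0.14 (SE 0.0685, adjusted p = 0.1 by edgeR's quasi-likelihood test). It passed after thinning the libraries to 1 depth (-0.22, edgeR adjusted p = 0.0439) and without the second vehicle library of the line labelled knockout (-0.17, edgeR adjusted p = 0.0438), and was -0.28 with Alb, the albumin gene, as a covariate and hepatocyte markers left out (edgeR adjusted p = 0.122). Counts per gene do not show a short edit inside the transcript, so they check nothing about such an edit, and directions below refer to the labels. Whether the replicates came from separate cultures is not stated, so p-values measure the spread between these samples. In bulk RNA, fewer cells of a type and less RNA per cell cannot be told apart.

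Between the lines, 3 of the 7 measurable members passed the threshold of 0.05 over both treatments, where 39.9% of all tested genes did. Adora1 was higher in the line labelled knockout, and Entpd3 and Slc17a9 were lower. Within vehicle alone 2 of 7 members passed, against 20.7% of all genes, and within ivermectin 2 of 7, against 27.8%; both times these were Adora1 and Entpd3. The share of members called was thus near that of genes at large. Their median log2 difference over both treatments was -0.141, beside -0.00242 over all genes.

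Entpd3 had the smallest adjusted p among the members. It measured 57.3, 39.1, 32.1 and 37.2 CPM in wild-type vehicle libraries and 47.0, 49.9, 45.7 and 48.2 CPM in wild-type ivermectin libraries. In the line labelled knockout it measured 35.4, 26.1, 28.9 and 22.2 CPM in vehicle and 34.3, 31.4, 24.2 and 23.9 CPM under ivermectin. Under ivermectin all 4 libraries of that line lay below all 4 wild-type libraries; in vehicle 1 library of each line crossed into the other's range. By edgeR the log2 difference was -0.55 (SE 0.169, adjusted p = 0.0169) in vehicle and -0.73 (SE 0.149, adjusted p = 0.000309) under ivermectin. Without the first wild-type vehicle library, the highest of its group, the vehicle difference was -0.36 (edgeR, adjusted p = 0.156). It was -0.45 (edgeR, adjusted p = 0.067) without the fourth library of the line labelled knockout, and -0.12 (edgeR, adjusted p = 0.912) with the Alb covariate and hepatocyte markers left out. DESeq2 gave -0.55 in vehicle and did not call it (adjusted p = 0.0549). Over both treatments the difference was -0.64 (edgeR adjusted p = 2.18e-05), and -0.38 with the Alb covariate (edgeR adjusted p = 0.209). Under ivermectin it passed with the Alb covariate (-0.65, edgeR adjusted p = 0.00178) and by DESeq2 (-0.73, adjusted p = 0.00174).

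Adora1, a receptor that lowers cyclic AMP, went the other way. It was at 6.75, 7.82, 4.28 and 4.64 CPM in wild-type vehicle libraries and at 4.50, 4.38, 9.94 and 5.36 CPM in wild-type ivermectin libraries. The line labelled knockout had 9.87, 12.5, 8.98 and 13.8 CPM in vehicle and 10.7, 10.3, 10.5 and 8.41 CPM under ivermectin. The groups did not overlap in vehicle, and under ivermectin only the third wild-type library reached into the higher range. EdgeR put the difference at 0.94 log2 units (SE 0.319, adjusted p = 0.0319) in vehicle and 0.75 (SE 0.288, adjusted p = 0.0473) under ivermectin. Over both treatments it was 0.85 (SE 0.215, adjusted p = 0.00185, edgeR). With the Alb covariate and hepatocyte markers left out, a setting that changes both at once, it was 0.74 (edgeR adjusted p = 0.196). The same setting gave 0.75 in vehicle (edgeR adjusted p = 0.59) and 0.72 under ivermectin (edgeR adjusted p = 0.0801), so the calls were lost with differences of much the same size under ivermectin and over both treatments. Each single-treatment call rested on few counts, 4 to 26 per library, and was lost by DESeq2 (adjusted p = 0.133 in vehicle and 0.181 under ivermectin). It was also lost on leaving out any of 4 libraries in vehicle (edgeR, adjusted p of 0.0623 to 0.102), or any of 6 under ivermectin (edgeR, 0.0808 to 0.155). The ivermectin call was lost too with the replicate block, without the low-count filter and after thinning. Of 16 alternatives for each treatment, Adora1 passed in 10 in vehicle and in 4 under ivermectin.

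Slc17a9, the vesicular ATP transporter, passed over both treatments and in neither treatment alone. Its levels were 3.37, 10.8, 9.62 and 6.50 CPM in wild-type vehicle libraries and 8.50, 8.22, 5.97 and 10.7 CPM in wild-type ivermectin libraries. In the line labelled knockout they were 4.07, 4.01, 8.98 and 3.71 CPM in vehicle and 3.75, 5.71, 3.92 and 5.18 CPM under ivermectin. The lines did not overlap under ivermectin and overlapped in vehicle, where the third library of the line labelled knockout stood apart from its group. The edgeR difference was -0.68 log2 units (SE 0.252, adjusted p = 0.0297) over both treatments, -0.53 (adjusted p = 0.331) in vehicle and -0.83 (adjusted p = 0.0654) under ivermectin. Fitted to the ivermectin libraries alone, the last of these passed (edgeR adjusted p = 0.0452), and Adora1 did not (edgeR adjusted p = 0.0552). Leaving out any of 8 single libraries ended the combined call, with edgeR adjusted p of 0.0527 to 0.105. It was also lost by DESeq2 (-0.69, adjusted p = 0.0965) and with the Alb covariate (-1.03, edgeR adjusted p = 0.136). After thinning the libraries to 1 depth, Slc17a9 fell below the count filter and was not tested.

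P2rx4, P2ry6 and Panx1 did not pass between the lines in any comparison of all 16 libraries by edgeR. Over both treatments P2rx4 passed without the first vehicle library of the line labelled knockout (0.28, edgeR adjusted p = 0.0352), and P2ry6 without its first ivermectin library (0.47, edgeR adjusted p = 0.0469). P2rx4 ranged from 22.7 to 38.7 CPM in the line labelled knockout and from 24.5 to 32.1 CPM in wild type (log2 difference 0.23, SE 0.112, edgeR adjusted p = 0.107 over both treatments). Under ivermectin its libraries did not overlap, with 30.7 to 32.7 CPM above 24.5 to 30.5 CPM. P2ry6 ranged from 6.41 to 15.996 CPM and Panx1 from 3.22 to 12.7 CPM over all libraries, and both overlapped between the lines.

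**Figure D2:**
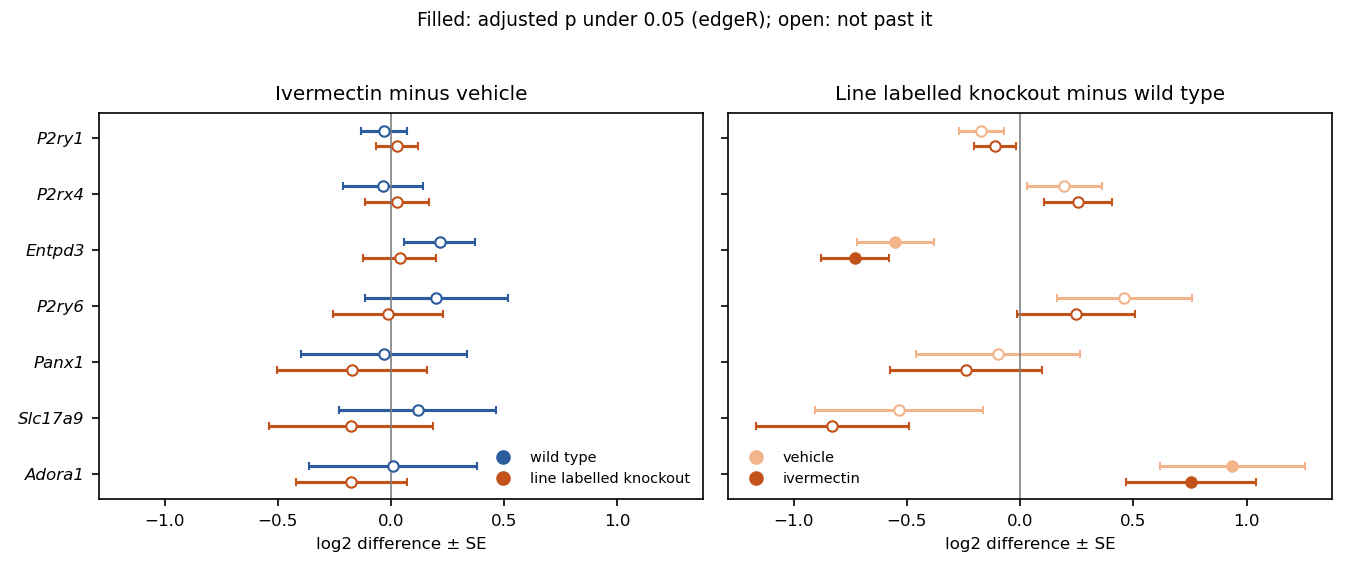
Log2 differences with standard errors for the 7 measurable members, ivermectin minus vehicle in each line (left) and line labelled knockout minus wild type in each treatment (right), by edgeR over 16 libraries; filled points passed an adjusted p of 0.05. No point is filled on the left, and Entpd3 and Adora1 are filled on the right in both treatments.

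Ivermectin, an antiparasitic drug that is also known to potentiate P2X4 channels, left no call among the members after 30 min. In wild-type cells 0 of 7 passed by edgeR, 0 had an unadjusted p under 0.05 and 0 passed by DESeq2, where 0.601% of all genes were called. The members' log2 differences ran from -0.04 to 0.22, the highest being that of Entpd3 (SE 0.157). In the line labelled knockout the same counts were 0, 0 and 0 of 7, the members ran from -0.18 to 0.04, and 0% of all genes were called (820 genes at an unadjusted p under 0.05, and 0 by DESeq2). P2ry1 itself differed by -0.03 (SE 0.101) in wild-type cells and by 0.03 (SE 0.0920) in the line labelled knockout. The difference between those responses, tested as an interaction, passed for 0 of 7 members by edgeR, for 0 at an unadjusted p under 0.05 and for 0 by DESeq2, beside 0.222% of all genes. Standard errors of 0.0920 to 0.371 for single members leave room for modest changes in either line.

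Of 44 further purinergic genes, 18 were measurable in the mouse cells. The list of 44 holds the other P2 and adenosine receptors, ectonucleotidases, nucleoside transporters and enzymes of adenosine metabolism. Of those receptors only Adora2b was measurable, and each of the rest had at most 51 counts in total. None of the 18 measurable genes passed for ivermectin in either line or for the interaction by edgeR. In each of these 3 comparisons 1 of 18 had an unadjusted p under 0.05, with 0 by DESeq2. Between the lines 6 of 18 passed in vehicle (2 higher and 4 lower in the line labelled knockout), against 20.7% of all genes. Under ivermectin 7 of 18 passed (3 higher and 4 lower), against 27.8%. Over both treatments it was 7 of 18, close to the 39.9% of all genes. With the Alb covariate and hepatocyte markers left out, these counts were 1 in vehicle, 6 under ivermectin and 3 over both treatments, beside 404, 2816 and 1759 of all 10809 genes tested in that setting.

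Of the further genes, Ada, which deaminates adenosine, differed by -1.61 log2 units in vehicle (SE 0.46, edgeR adjusted p = 0.00999) and by -1.51 under ivermectin (SE 0.418, edgeR adjusted p = 0.00627). Ak1, an adenylate kinase, fell by 0.77 in vehicle and by 0.79 under ivermectin on the log2 scale, with no overlap between the lines either time. The nucleoside transporters Slc29a1 and Slc29a4 fell as well, Slc29a4 by 0.54 in vehicle and by 0.65 under ivermectin (edgeR adjusted p = 2.58e-05 and 2.94e-07). Vdac1, an outer mitochondrial membrane channel, was higher by 0.47 and 0.54 (edgeR adjusted p = 8.49e-07 and 1.89e-08). Enpp1, an ectonucleotide pyrophosphatase, was higher by 1.60 in vehicle (edgeR adjusted p = 0.0052) and differed by 0.52 under ivermectin, where the lines overlapped (edgeR adjusted p = 0.313). Pnp, a purine nucleoside phosphorylase, was higher by 0.31 under ivermectin (edgeR adjusted p = 0.0328) and differed by 0.20 in vehicle (edgeR adjusted p = 0.287).

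Across the 16 libraries the genes whose log2 CPM followed P2ry1 most closely were Nap1l3 (Pearson r = 0.852), Yy1 (0.819) and Plekha5 (0.812). These libraries share their group structure and depth differences, so the values describe likeness only.

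Of the 10 human orthologs, 5 passed in at least 1 comparison of a cell type with β-cells and 5 in none. Single comparisons called 1.4% to 12.9% of all tested genes, and the share of genes passing in at least 1 was not counted. The matrix held 1081 cells, and 980 of them were annotated as one of 6 types: 164 β-, 437 α-, 59 δ-, 74 γ-, 135 ductal and 111 acinar cells. Counts were summed per donor and type where a donor had at least 10 cells, which gave 24 sums from 930 cells: 6 donors for β- and α-cells, 4 for ductal, 3 each for δ- and γ-, and 2 for acinar cells. The sums were compared with β-cells of the same donors by edgeR with donor as a block, so all 5 comparisons share the β-cell sums. The listed markers of every type were highest in that type, except that 4 of 5 did so for α-cells. All 10 orthologs passed the count filter, though 6 of them had 25 counts or fewer in 164 β-cells, out of 113486415. Reads had no molecular identifiers and are not independent molecules. The Wilson intervals of shares and the exact intervals of ratios of pooled counts therefore cover counting error only, not the spread between cells or donors.

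**Figure D3:**
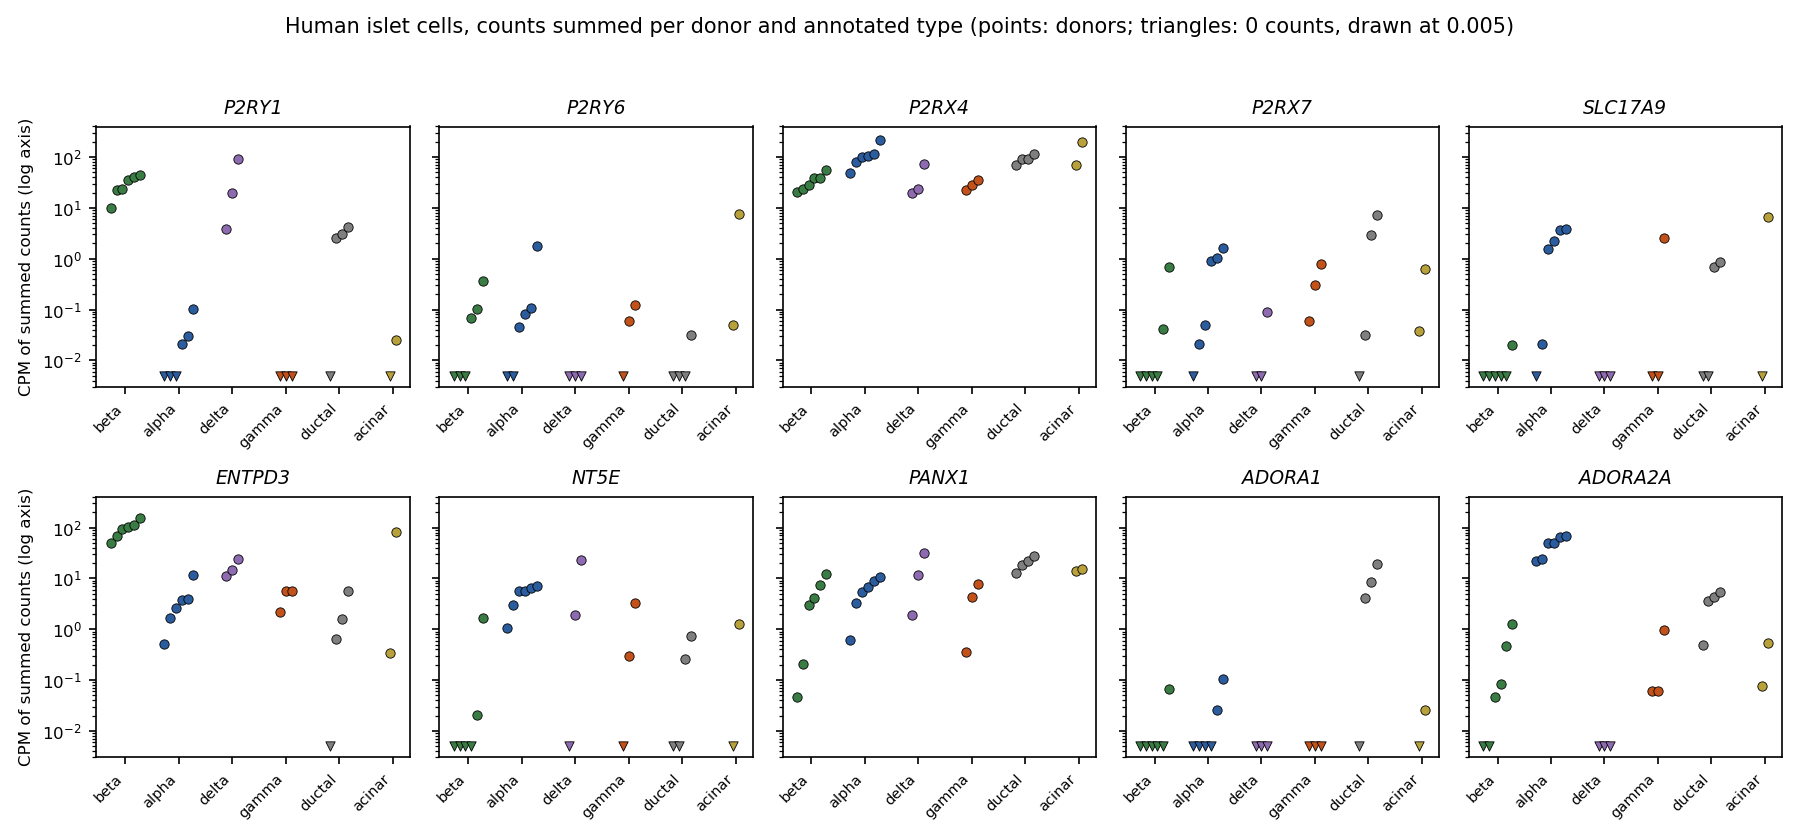
CPM of the 10 human orthologs in sums per donor and annotated type (log axis), with 1 point per donor, ordered by value within a type, and triangles for sums with 0 counts. P2RY1 and ENTPD3 are highest in β-cells among the types with 4 or more donors, ADORA2A in α-cells and ADORA1 in ductal cells.

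Among the human cells P2RY1 was highest in β- and δ-cells. Its level was 9.78 CPM in the lowest β-cell sum, 29.5 at the median and 44.6 in the highest. The 3 δ-cell sums held 3.82, 19.9 and 89.8 CPM, on both sides of the β-cell range (log2 difference 0.48, SE 1.44, edgeR adjusted p = 0.946). Ductal sums were lower, at 0, 2.59, 3.11 and 4.23 CPM (log2 difference -3.73, SE 1.14, edgeR adjusted p = 0.0366), and did not overlap with β-cells. That ductal call was lost on leaving out any of 4 donors (edgeR adjusted p of 0.0518 to 0.144).

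In α-, γ- and acinar cells P2RY1 was at or near 0 counts. In α-cells it had 6 counts in all and at most 0.104 CPM in a donor, 1450-fold below β-cells in pooled counts (95% exact interval 666 to 3960, edgeR adjusted p = 5.18e-05). γ-cells had 0 counts, which puts them at least 376-fold lower, taking 3 counts over the type as the limit (edgeR adjusted p = 0.00276). Acinar cells had 1 count, a ratio of 2780 (95% exact interval 499 to 110000, edgeR adjusted p = 0.00291), a call that rests on 2 donors and was lost without either of them (adjusted p = 0.0981 and 0.0724). By cell, 39.0% of β-cells had a P2RY1 count (interval 31.9% to 46.7%), 32.2% of δ-cells and 16.3% of ductal cells. The share was 1.37% in α-cells and 0 of 74 in γ-cells, which allows up to 4.05%, taking 3 cells as the limit; median depths were 547765 counts in β-cells and 462289 in α-cells. Thinned to 100000 counts per cell, with 22 shallower β-cells left out, the β-cell share was 35.9%. The 3 β-cells with most P2RY1 reads held 39.7% of them.

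ENTPD3 was higher in β-cells than in each of the other 5 types in every donor with both sums. By cell, 70.7% of β-cells had a count (interval 63.4% to 77.2%), beside 61.3% of acinar cells (interval 52.0% to 69.8%) and 45.8% of δ-cells. The share was 21.5% in ductal, 12.2% in γ- and 8.24% in α-cells. The lowest β-cell sum of ENTPD3 was 50.7 CPM, the median 97.9 and the highest 156. In α-cells the lowest, median and highest were 0.507, 3.16 and 11.5 CPM (log2 difference -4.84, SE 1.01, edgeR adjusted p = 0.00506), lower than in β-cells in all 6 donors. Ductal sums held 0, 0.635, 1.57 and 5.62 CPM (-6.43, SE 1.31, edgeR adjusted p = 0.00169). The δ-cell sums of 11.0, 14.5 and 23.9 CPM and the γ-cell sums of 2.23, 5.62 and 5.66 CPM also lay below every β-cell sum, without passing (edgeR adjusted p = 0.279 and 0.0636). Acinar cells disagreed between donors, with 0.346 CPM in one sum and 80.3 CPM in the other (edgeR adjusted p = 0.637). The matrix also lists an antisense gene, ENTPD3-AS1, with 8529 counts, and the strand of these reads is not given in the sources used here.

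ADORA2A was highest in α-cells. Its lowest, median and highest α-cell sums were 22.0, 49.97 and 67.8 CPM, while no β-cell sum exceeded 1.26 CPM (log2 difference 8.15, SE 1.06, edgeR adjusted p = 6.87e-05). It was higher in α-cells in 6 of 6 donors, and 59.0% of α-cells had a count against 6.10% of β-cells. Ductal sums were intermediate, at 0.497, 3.53, 4.29 and 5.33 CPM (difference from β-cells 4.71, SE 1.08, edgeR adjusted p = 0.00535). That call was lost without 1 donor (edgeR adjusted p = 0.0615), and 86.5% of the ductal reads came from 3 cells. Overlapping names in the matrix, ADORA2A-AS1 with 1845 counts and SPECC1L-ADORA2A with 789, may share reads with it.

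ADORA1, the other adenosine receptor of the list, was found in ductal cells. Ductal sums held 0, 4.04, 8.50 and 18.9 CPM, and 48.9% of ductal cells had a count (interval 40.6% to 57.2%). β-cells had 1 count in all, a ductal to β-cell ratio of 1270 in pooled counts (95% exact interval 228 to 50400, edgeR adjusted p = 0.00646). The share of cells was at most 0.901% in the other 5 types. DESeq2 did not call this difference (adjusted p = 0.102), and edgeR lost it without either of 2 donors (adjusted p = 0.0615 and 0.114).

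**Figure D4:**
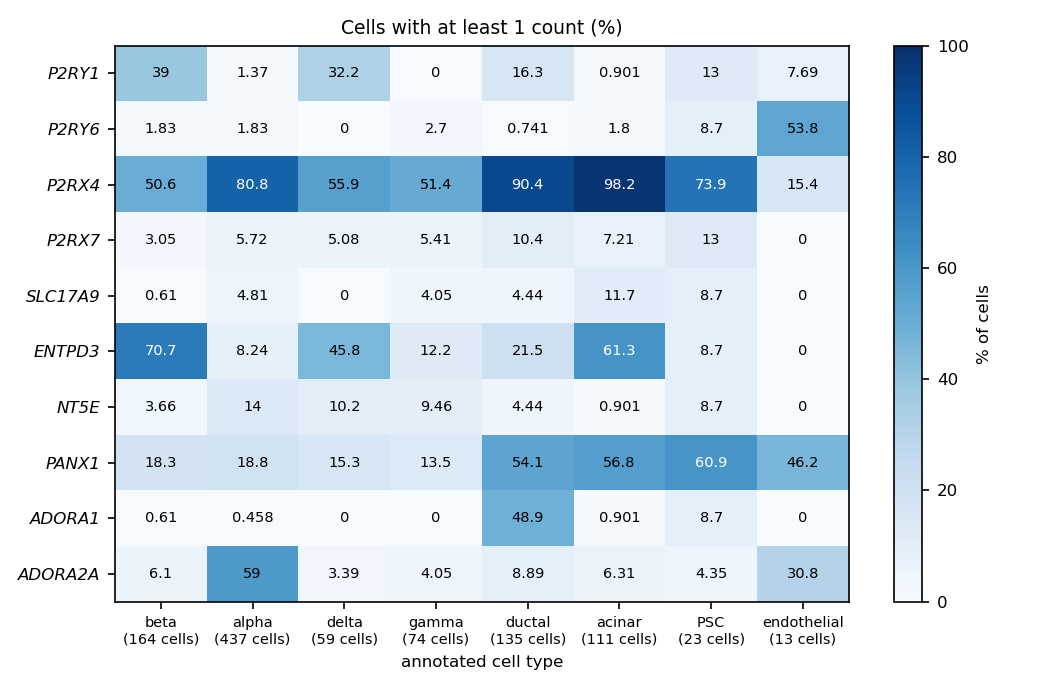
Percentage of annotated cells with at least 1 count of each human ortholog, for the 6 types compared, pancreatic stellate cells (PSC) and endothelial cells, with the number of cells under each type. P2RX4 is found in 50.6% or more of the cells of the 6 compared types, whereas P2RY6 is at 53.8% in endothelial cells and at 2.703% or less in the 6 compared types.

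P2RX4, a channel that ivermectin is known to act on, was found in every compared type. Its lowest, median and highest sums were 20.3, 32.9 and 54.7 CPM in β-cells and 48.9, 103 and 216 CPM in α-cells, with the α-cell value above the β-cell value in 6 of 6 donors (log2 difference 1.64, SE 0.304, edgeR adjusted p = 0.00192). Ductal sums of 70.7, 91.0, 91.7 and 117 CPM did not overlap with β-cells (1.59, SE 0.338, edgeR adjusted p = 0.00248), nor did acinar sums of 70.3 and 203 CPM (1.68, SE 0.416, edgeR adjusted p = 0.0118). The acinar call was lost without 1 donor (adjusted p = 0.481). δ-cell sums ran from 19.5 to 72.6 CPM and γ-cell sums from 22.3 to 35.5 CPM, within or across the β-cell range.

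PANX1, SLC17A9 and NT5E did not pass in any human comparison of the main edgeR fit, with sums of at least 10 cells, the low-count filter and all donors. PANX1 had 0.0459 to 12.2 CPM in β-cells and 12.6 to 27.8 CPM in ductal cells, without overlap (log2 difference 2.53, SE 1.23, edgeR adjusted p = 0.208), and 13.9 and 15.1 CPM in acinar cells (edgeR adjusted p = 0.483). SLC17A9 had 1 count in β-cells and 610 in α-cells, where its sums ran from 0 to 3.79 CPM (edgeR adjusted p = 0.0558). In acinar cells it had 0 and 6.64 CPM, the latter its highest sum in any type compared (log2 difference 4.83, SE 2.845, edgeR adjusted p = 0.386). A count was found in 11.7% of acinar and 4.81% of α-cells. NT5E ran from 0 to 1.64 CPM in β-cells and from 1.06 to 6.97 CPM in α-cells, higher in α-cells in 6 of 6 donors (edgeR adjusted p = 0.0676). The 3 δ-cell sums of NT5E held 0, 1.90 and 23.0 CPM, the last its highest in any type compared (log2 difference 6.64, SE 2.32, edgeR adjusted p = 0.2). DESeq2 called the α-cell differences of both genes (adjusted p = 0.00239 for SLC17A9 and 0.00228 for NT5E), and so did limma (0.0162 and 0.0156) and edgeR without a filter (0.0461 and 0.0177). SLC17A9 also passed with sums of at least 20 cells (edgeR adjusted p = 0.0346), and NT5E without 1 donor (edgeR adjusted p = 0.0353). PANX1 in ductal cells passed by limma (adjusted p = 0.0296).

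P2RY6 and P2RX7 were low in most sums. P2RY6 had 11 counts in β-cells and none in the δ-cell sums, and its highest sum in β-, α-, δ-, γ- and ductal cells was 1.75 CPM. The 2 acinar sums of P2RY6 held 0.0503 and 7.51 CPM, the latter its highest in any type compared (log2 difference from β-cells 4.73, SE 2.65, edgeR adjusted p = 0.351). P2RX7 had 12 counts in β-cells and at most 7.25 CPM, in a ductal sum. Neither passed in any of the 5 comparisons.

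Counted by cell type, 4 of 10 orthologs differed between α- and β-cells, where 5.17% of all 21857 genes did: ADORA2A and P2RX4 were higher and P2RY1 and ENTPD3 lower. The median log2 difference was 1.12 over the members and 0.386 over all genes. Between ductal and β-cells 5 of 10 passed (3 higher, 2 lower) against 12.9% of genes. With sums of at least 20 cells only ENTPD3 still passed (-5.61, edgeR adjusted p = 0.0103), while P2RX4 was at 1.04 (edgeR adjusted p = 0.114), and without single donors 2 to 5 passed. The γ-cells gave 1 of 10 against 3.13% and the acinar cells 2 of 10 against 8.79%. Between δ- and β-cells 0 of 10 passed by edgeR, with 1.4% of all genes called by it. An unadjusted p under 0.05 by edgeR was found for 2 (ENTPD3 and NT5E) and for 2840 of all 21857 genes. DESeq2 called 2 of 10, beside 2201 of 32877 genes.

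Of 45 further purinergic genes 34 were measurable in the human sums. ENTPD5, an intracellular nucleotidase, was the only one called in α-cells (edgeR adjusted p = 0.0204), where it was higher than in β-cells in 6 of 6 donors. That call was lost without any of 4 donors and without the donor block, and DESeq2 and limma each called 7 of these genes. Ductal cells gave 12 calls of 34, 6 in each direction, against 12.9% of all genes. That count was 6 without either of 2 donors, 5 with sums of at least 20 cells and 18 by limma. Among those with the smallest adjusted p, SLC29A4 was lower by 2.66 and SLC29A1 by 2.37 log2 units. GJD2, which forms β-cell gap junctions, ENPP2 and ENPP1 were lower too, and the nucleoside transporter SLC28A3 was higher (edgeR adjusted p of 0.000144 to 0.00403). Acinar cells gave 5 calls against 8.79% of all genes, and 2 without either of 2 donors: SLC29A4, ENPP2 and GJD2 were lower, and ENTPD5 and SLC28A3 higher. None passed in γ- or δ-cells by edgeR on these sums, where 5 and 6 had an unadjusted p under 0.05. DESeq2 called 6 and 3, beside 3028 and 2201 of 32877 genes. In δ-cells 1 passed by edgeR without a filter and 1 with sums of at least 20 cells.

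Over the 6 cell types the genes most like P2RY1 in mean log2 CPM were NTPCR (Pearson r = 0.994), CDHR1 (0.991) and HMOX1 (0.987). The closest to ENTPD3 were ARMCX3 (0.981), MIR762HG (0.979) and RGS16 (0.970). With 6 types from the same donors, and a choice among all tested genes, these are descriptions.

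Side by side, the mouse line and the human β-cells both had P2RY1, P2RX4, ENTPD3 and PANX1 among the members, and both had few counts of P2RX7 and NT5E. Slc17a9, Adora1, P2ry6 and Adora2a had counts in all 16 BetaTC6 libraries, 156, 215, 270 and 78 in total. Their orthologs had 1, 1, 11 and 20 counts in 164 human β-cells. The platforms and depths differ, and the difference was not tested.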

How the data were processed

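The members and every gene list were chosen with earlier results of these data known. Poly(A) RNA (125 ng) of the mouse cells was sequenced with a strand-keeping kit, per the labels' protocols; the submitters' processing notes name bcl2fastq, STAR 2.7.2b, RSEM 1.3.3, DESeq2 1.32.0 and the build mm10. The whole-number counts that the authors deposited for 16 libraries equalled RSEM's expected counts, per the file headers, rounded down, with 0 mismatches. TPM values are those that RSEM gave, per the file headers, and served only for levels between genes. The expected counts the authors deposited, rounded to whole numbers, were an alternative. The human whole-number counts came from RSEM 1.3.3 on GRCh38.p12, per the series' design text that was deposited with them; the annotation table deposited beside them gave donor, quality and cell type. The matrix named for donors with type 2 diabetes was identical to the control matrix and was not used. No cell column was duplicated, 1081 of 1081 cells were marked as passing quality, and 25 cells annotated as co-expressing were left out of the 6 types; no doublet caller was run.

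The test of the counts was that of edgeR 4.0.16, run in R 4.3.3 (TMM factors, filterByExpr at its defaults of 10 counts and 15 in total, glmQLFit, glmQLFTest, Benjamini-Hochberg over all tested genes, threshold 0.05). The mouse fit had 1 mean per group; the human fit had cell type and donor. CPM values carry TMM factors, except the Alb and Ttr means and the mouse limits for 0 counts, which are scaled to library totals alone. Human CPM are not scaled by length and are compared only within a gene. Every mouse replicate pair differed by more than counting noise (chi-squared per degree of freedom 1.16 or more). Mouse alternatives were DESeq2 1.42.0, relative log expression factors, all genes kept, genes averaging 50 counts or more, RSEM's expected counts, a fit to the compared groups alone, a replicate block, thinning to 893088 counts, hepatocyte markers left out with Alb as a covariate, and leaving out each library. Human alternatives were DESeq2, relative log expression factors, no filter, sums of at least 20 cells, limma 3.58.1 on log2(mean CPM + 1), no donor block, and leaving out each donor. The tests were checked on simulated counts. Named genes are the 10 members, up to 6 further list genes per comparison by adjusted p, and the 3 closest genes by Pearson r.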

Additional observations from a re-analysis of the deposited data

Results flagged for a closer look

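Single values far from the rest of their group, by Dixon's ratio at the 95% level, occurred in 14 of 68 groups of 4 or 6 values tested; chance alone flags about 1 in 20 groups, and groups that are nearly all 0 are flagged by 1 or a few reads. Of the measurable mouse members only Slc17a9 had one: 8.98 CPM in the third vehicle library of the line labelled knockout, beside 4.07 CPM in the nearest of the other 3. Among the mouse members below the count filter, P2rx7 had 1.86 CPM in 1 wild-type vehicle library and 0 in the other 3. Nt5e had 1.12 CPM in 1 wild-type vehicle library and 0.663 CPM in 1 wild-type ivermectin library, each against 0 in the other 3.

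In the human sums the single high values in α-cells were P2RY1 at 0.104 CPM, P2RY6 at 1.75 CPM against 0.107 in the next donor, ENTPD3 at 11.5 CPM against 4.01, and ADORA1 at 0.104 CPM. In β-cells they were P2RY6 at 0.361 CPM, P2RX7 at 0.681 CPM, SLC17A9 at 0.0204 CPM, NT5E at 1.64 CPM against 0.0204 in the next donor, and ADORA1 at 0.0681 CPM. In ductal cells P2RY6 had 0.0318 CPM in 1 donor and 0 in the other 3. P2RY6 also had a signal in cells that no comparison used: 7 of 13 endothelial cells had a count, 53.8% (Wilson interval 29.1% to 76.8%), beside 2.703% in γ-cells, the highest of the 6 compared types.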

How the results depend on the processing

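No member passed for ivermectin in either line or for the interaction under the 17 to 24 alternatives run for each. Between the lines in vehicle, 2 members became 0 by DESeq2, 1 with a mean of at least 50 counts, 0 with Alb as a covariate and hepatocyte markers left out, and 0 to 2 on leaving out a library. Under ivermectin, 2 became 1 by DESeq2, without the low-count filter, with a mean of at least 50 counts, with the replicate block, after thinning and with the Alb covariate, and 1 to 2 without single libraries. Over both treatments, 3 became 1 with a mean of at least 50 counts, where Slc17a9 and Adora1 are not tested, 0 with the Alb covariate, 2 by DESeq2, and 2 to 3 without single libraries; in 2 of those fits P2rx4 or P2ry6 passed in place of Slc17a9. P2ry1 over both treatments passed after thinning (-0.22), where Slc17a9 was not tested, and without the second vehicle library of the line labelled knockout (-0.17). Its leave-one-out values over both treatments ran from -0.17 to -0.11. With the Alb covariate and hepatocyte markers left out P2ry1 differed by -0.28 over both treatments, -0.41 in vehicle and -0.18 for ivermectin in wild type, with 0.25 for the interaction, none past the threshold. Its ivermectin differences changed sign: in wild type to 0.14 after thinning and 0.028 without the second vehicle library, in the line labelled knockout to -0.039 without the third vehicle and -0.015 without the second ivermectin library, and for the interaction to -0.062 after thinning, -0.0014 without the second wild-type vehicle library and -0.0060 without the third vehicle library of the other line. Leave-one-out values ran from -0.082 to 0.028, from -0.039 to 0.094 and from -0.0060 to 0.13.

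Same-numbered libraries deviated together with r of -0.0566 to 0.145, over 0.1 in 2 of 24 pairings, so the numbers do not pair the libraries. With the replicate block 2, 1 and 3 members passed between the lines in vehicle, under ivermectin and over both treatments, and 0 for ivermectin.

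For human cells, α-cell calls went from 4 to 6 by DESeq2, without a filter and by limma, and δ-cell calls went from 0 to 2 by DESeq2, and γ-cell calls from 1 to 2 by DESeq2, without a filter and by limma on mean CPM. Ductal calls went from 5 to 1 with sums of at least 20 cells (fewer sums), and from 2 to 5 without single donors. Acinar calls went from 2 to 4 by limma and from 0 to 2 without single donors. P2RY1 in δ-cells changed sign to -1.06 with sums of at least 20 cells and to -1.81 without 1 donor (without single donors -1.81 to 1.76), and ENTPD3 in acinar cells to 0.13 without 1 donor (-8.22 to 0.13).

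Over all genes, calls for ivermectin in wild type went from 65 to 140 without a filter, 7 with a mean of at least 50 counts and 1 with the Alb covariate, and in the line labelled knockout from 0 to 23 without a filter. For the interaction 24 became 82, 4 and 0 under the same settings and 47 with the replicate block. Between the lines 2240 became 404 in vehicle and 4316 became 1759 over both treatments with the Alb covariate, and 3008 became 1907 under ivermectin after thinning. Without single libraries the calls for ivermectin in wild type ran from 55 to 100 and those for the interaction from 8 to 48. Human calls against β-cells of 1131 (α), 305 (δ), 684 (γ), 2829 (ductal) and 1922 (acinar) became 4013, 2201, 3028, 5101 and 3501 by DESeq2. They became 2070 (α), 715 (δ), 1731 (γ) and 4398 (ductal) by limma, 539 (δ) without a filter, 660 (α) and 403 (γ) without the donor block, and 183 (δ), 346 (γ), 1361 (ductal) and 1109 (acinar) with sums of at least 20 cells. Without single donors they ran from 641 to 944 (α), 85 to 313 (δ), 203 to 803 (γ), 1699 to 2887 (ductal) and 653 to 2164 (acinar), which moves the shares given as background. The cause was not tested.

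The differences of P2RY1, ENTPD3, ADORA2A and P2RX4 between α- and β-cells passed under all 12 alternatives. Other differences of the members changed sign in 30 of 288 mouse values without single libraries and 14 of 198 otherwise, and in 19 of 175 and 28 of 180 human values. Counts of 3 to 26 per library for Slc17a9 and Adora1, and 2 or 3 donors for acinar, δ- and γ-cells, limit the precision.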
